A study of Mus musculus with 16 samples.

Results

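Cytosolic sulfotransferases of the mouse liver were followed across genotype and diet. The set held 10 named genes, Sult1e1, Sult1a1, Sult1b1, Sult1c2, Sult1d1, Sult2a1, Sult2a2, Sult2a8, Sult3a1 and Sult5a1. All 10 had a row in a table of 15544 genes and all 10 were among the 12704 genes with enough signal to test. A gene had to reach 1 in at least 4 libraries. Sult1e1 did so in 8, none of them a control, so it entered the test only through the mutants. The family was chosen by the values of Sult1e1 in mutants and controls on chow in these same libraries, so for that comparison the values below are a description without a test. The table also held 8 further sulfotransferase genes and pseudogenes, which are given where they help to read the 10.

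RNA was sequenced from whole liver of female mice aged 27 weeks, in 4 groups of 4 libraries. Controls carried Esr1 fl/fl, loxP-flanked alleles of the gene for oestrogen receptor α. Mutants (Esr1Nkx2-1Cre) also carried a Cre recombinase driven by Nkx2-1, a gene of the ventral hypothalamus and of a few other tissues but not of hepatocytes. The labels describe the mutants as females of high bone mass. The study reported that a high-fat diet reversed this phenotype in mutant females. One group of each genotype ate chow throughout and the other had spent 17 weeks on a high-fat diet (HFD). Mice of both genotypes were on a mixed CD-1 and 129P2 background. The groups are called control chow, mutant chow, control HFD and mutant HFD. The labels do not say whether each library came from a separate mouse, so a p-value measures the spread between libraries.

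Sulfotransferases move a sulfate group from the donor PAPS (3'-phosphoadenosine 5'-phosphosulfate) to a hormone, bile acid, drug or dietary phenol. The product is more soluble, cannot bind most hormone receptors, and is exported or cut back by sulfatases. Sult1e1 is the oestrogen sulfotransferase, which inactivates oestradiol and oestrone at low concentrations, and it is usually scarce in healthy adult mouse liver. Sult1 enzymes act mainly on phenols, Sult2a enzymes on hydroxysteroids and bile acids, and Sult3a enzymes on amines. In mouse liver several Sult2a and Sult3a genes are more strongly expressed in females, a pattern set largely by growth hormone.

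The genes sit in families on the GRCm38 build (gene spans of GENCODE M21). Sult1b1 (chr5:87513339-87538195), Sult1d1 (chr5:87554645-87569027) and Sult1e1 (chr5:87575969-87591594) are neighbours on the minus strand of chromosome 5. Sult2a1 (chr7:13796246-13837409, minus strand), Sult2a2 (chr7:13733505-13779636, plus strand) and Sult2a8 (chr7:14410686-14446769, minus strand) lie among 10 Sult2a genes and pseudogenes that span 870 kb of chromosome 7. Sult3a1 (chr10:33857721-33879532, plus strand) lies close to its paralogue Sult3a2 (chr10:33766424-33786704, minus strand). Sult1a1 (chr7:126672865-126676432), Sult1c2 (chr17:53829637-53846339) and Sult5a1 (chr8:123140192-123158315), each on the minus strand, stand apart from these clusters.

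Promoter windows from RefSeq (build GRCm38.p6, 250 bases before to 50 bases after the annotated start) were matched by symbol for 8 of the 10 genes. The windows of Sult1e1, on which the set was chosen, and of Sult3a1 and Sult3a2, whose levels moved together, are printed in the direction of transcription. Capitals mark a match to a searched motif. They come from chr5:87591562-87591861 (minus strand), chr10:33857472-33857771 (plus strand) and chr10:33782066-33782365 (minus strand). The RefSeq start of Sult3a2 lies inside the gene span given above.
Sult1e1: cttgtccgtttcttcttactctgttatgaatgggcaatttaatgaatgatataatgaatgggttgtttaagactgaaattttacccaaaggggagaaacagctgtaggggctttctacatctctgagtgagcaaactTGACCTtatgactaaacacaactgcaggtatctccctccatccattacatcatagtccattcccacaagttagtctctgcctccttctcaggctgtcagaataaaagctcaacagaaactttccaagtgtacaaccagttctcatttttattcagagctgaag
Sult3a1: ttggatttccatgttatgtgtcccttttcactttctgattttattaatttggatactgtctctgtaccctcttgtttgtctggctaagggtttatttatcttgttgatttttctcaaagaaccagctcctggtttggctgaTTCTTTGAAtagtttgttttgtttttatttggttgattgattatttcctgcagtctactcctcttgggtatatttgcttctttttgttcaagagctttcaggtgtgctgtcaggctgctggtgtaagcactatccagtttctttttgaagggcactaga
Sult3a2: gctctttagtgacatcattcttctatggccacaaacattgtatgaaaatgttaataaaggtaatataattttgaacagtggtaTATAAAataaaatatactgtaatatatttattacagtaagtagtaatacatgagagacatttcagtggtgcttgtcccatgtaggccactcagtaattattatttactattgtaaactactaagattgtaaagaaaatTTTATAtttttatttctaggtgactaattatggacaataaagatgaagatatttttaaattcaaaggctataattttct

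The motifs were TTCNNNGAA (bound by STAT5, which carries the growth hormone signal), AGGTCA (a half-site of nuclear receptors), TATAAA and the oestrogen response element, each searched on both strands. Sult1e1 held 1 AGGTCA on the strand opposite to transcription, 113 to 108 bases before the start. A match to AGGTCA was present in 16.3% of 32851 promoter windows of the same length. Sult3a1 held 1 TTCNNNGAA, 109 to 101 bases before the start, a motif present in 8.3% of all windows. Sult3a2 held 2 matches to TATAAA, a motif of 13.6% of windows, and its window shared no searched motif with that of Sult3a1. The oestrogen response element was found in 0.07% of all windows and in none of the 13 sulfotransferase genes with a window. An absent match says only that these letters are not in the window.

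Levels are given in adjusted TPM, the authors' TPM (transcript abundance per length, scaled to a fixed total) after a size factor for each library, a scale that is relative to transcript length and so allows genes to be ordered. The family ranged widely. Over the 16 libraries the mean level ran from 1252 for Sult3a1, the 89th gene of the table, to 3.30 for Sult1e1, the 9833rd. In control chow livers Sult3a1 (1758 ± 505, SD, n = 4) stood above all other members, its lowest library above the highest of Sult2a1. Sult2a1 (485 ± 135), Sult1a1 (474 ± 84.5), Sult2a2 (308 ± 70.3) and Sult2a8 (222 ± 38.8) followed, each overlapping its neighbour in the order. Sult1d1 (102 ± 27.5), Sult5a1 (68.3 ± 64.2) and Sult1b1 (39.8 ± 3.93) came next with overlapping ranges. Sult1c2 (7.31 ± 1.60) and Sult1e1 (0.552 ± 0.344) were lowest and each was separated from the gene above it. In mutant HFD livers the order at the top differed: Sult2a1 (787 ± 305), Sult3a1 (606 ± 738) and Sult1a1 (590 ± 185) overlapped one another.

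**Figure D1:**
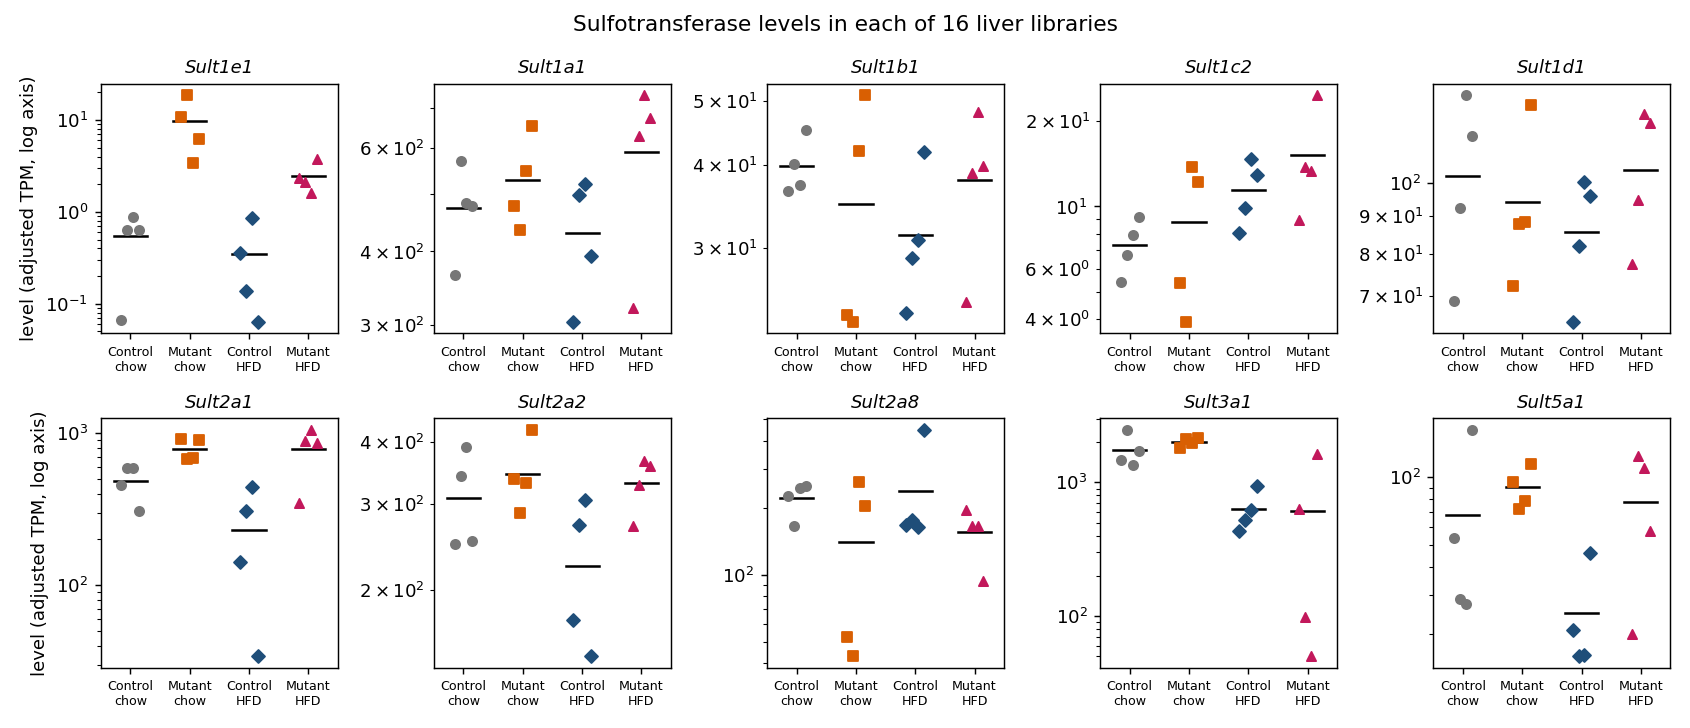
Level of each of the 10 sulfotransferases in every library (adjusted TPM, a log axis for each gene), with 1 point per library, 4 libraries per group and a bar at the group mean. Sult1e1 is higher in mutants than in controls on both diets, Sult3a1 is lower on HFD in both genotypes, and Sult1a1, Sult1b1 and Sult1d1 overlap between all groups.

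Tissue identity was checked with marker genes. All 10 hepatocyte markers fixed for the purpose were strongly expressed, with Alb (albumin) between 36044 and 79775. Of 8 adipose markers, 5 including Adipoq and Lep had no row and Plin1 was at most 0.149. The other 2 were Fabp4, at 4.02 to 10.1, and Car3, which hepatocytes also express, at 445 to 3360. Column totals ran from 905897 to 1.12e+06 adjusted TPM. Read depth is unknown, so no counting interval can be given for a low gene. Library titles fall into 4 number series, and on HFD these run largely with genotype (3 controls and 1 mutant in one, 1 control and 3 mutants in the other). Each series holds libraries of a single diet, so a difference between diets cannot be told apart from one between series. The labels do not say what the numbers mean. Values within each series are given where a result turns on them. Liver Esr1 was 11.7 ± 3.45 in control chow and 13.6 ± 5.54 in mutant chow. In HFD libraries Esr1 averaged 7.21 ± 0.825 for controls against 17.7 ± 7.60 for mutants (log2 difference 1.06, limma adjusted p = 0.527). Its level in liver does not check the labels, because the Cre is not driven in hepatocytes.

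Of the 10 genes, Sult1e1 had the largest difference between genotypes on chow. The 4 control chow libraries read 0.0659, 0.629, 0.878 and 0.635. The 4 mutant chow libraries read 10.9, 18.8, 3.45 and 6.18. Every mutant stood above every control. The ratio of the means was 17.8 and the difference was 2.62 ± 0.362 (SE) on the log2(adjusted TPM + 1) scale, which understates the change of a gene this low. Of all 12704 genes, 1.95% were higher in every mutant than in any control on chow and 1.09% were lower. Because these values chose the family, nothing is read from them beyond their size.

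That choice rested on the chow values, but the members were set with earlier results of these data known. The limma spread was pooled over all 16 libraries, those on chow included. Sult1e1 also passed the filter only through mutants. The HFD p-values below are therefore not independent of the choice. On HFD Sult1e1 read 0.356, 0.137, 0.850 and 0.0637 in controls. In mutants it read 2.34, 2.09, 1.61 and 3.79. The groups again did not overlap, and the mutant mean was 6.99 times the control mean (log2 difference 1.35 ± 0.362, limma adjusted p = 0.524 over all genes, unadjusted p = 0.00191). An exact two-sided permutation test of this gene gave p = 0.0286, the smallest value that 4 against 4 libraries allow. Within each of the 2 number series on HFD the mutant libraries were above the controls, by 1.23 and 1.67 (log2). The size of the HFD difference depended on the pseudocount, at 2.76 with 0.1 in place of 1 (limma adjusted p = 0.416). With libraries weighted by their residual spread it passed (1.28, limma adjusted p = 0.00626), as did that of 30.9% of all genes. Over the other alternatives tried the adjusted p was between 0.0897 and 1.

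**Figure D2:**
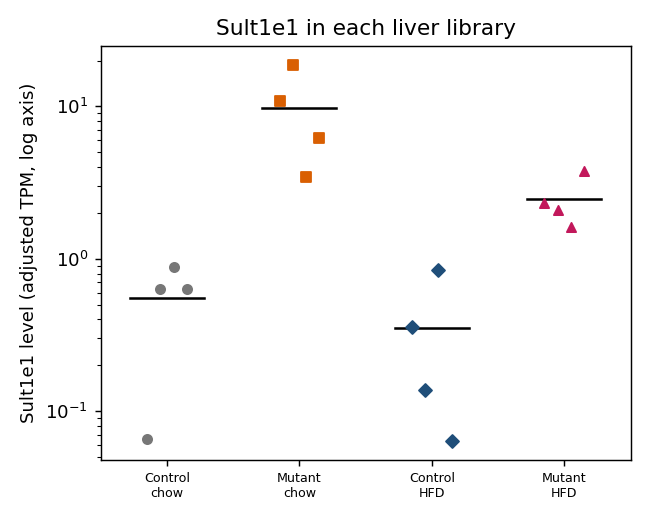
Sult1e1 level in each of the 16 libraries (adjusted TPM, log axis), with 1 point per library and a bar at the mean of each group of 4. All mutants on chow (3.45 to 18.8) and on HFD (1.61 to 3.79) sit above all controls (0.0637 to 0.878).

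In mutants the Sult1e1 mean was lower on HFD than on chow, by a difference that did not pass. The mutant mean was 9.83 ± 6.71 on chow and 2.46 ± 0.938 on HFD, a log2 difference of -1.47 ± 0.362 (limma adjusted p = 0.421, exact permutation p = 0.0571). The lowest chow mutant (3.45) lay below the highest HFD mutant (3.79), so the groups overlapped. In controls the means were 0.552 and 0.352 (log2 difference -0.20, limma adjusted p = 0.835). The interaction of genotype and diet was -1.26 ± 0.512 (limma adjusted p = 0.895). Without mutant chow replicates 1 and 2, a choice made after the values were seen, the diet difference in mutants was -0.75 and the interaction -0.54. The diet comparison in mutants and the interaction share the mutant chow libraries with the comparison that chose the family, so neither is independent of it.

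No other member separated the genotypes on both diets. Of all genes, 0.102% (13 of 12704) were higher in every mutant than in any control on each diet, a count that Sult1e1 enters partly through the chow values that chose the family, so nothing is read from it. On HFD, 1.39% of all genes were higher in every mutant and 1.31% were lower, against 1 of 10 members (Sult1e1) and 0 of 10. Sult1e1 passed the filter only through mutants, so nothing is read from that count. By limma adjusted p none of the 10 passed in the HFD comparison (adjusted p 0.524 to 0.743), where 0.0157% of genes did. At an unadjusted p under 0.05 there were 4 of 10 members (Sult1e1, Sult2a1, Sult2a2 and Sult5a1), beside 8.6% of all genes. With library weights 5 of 10 passed the adjusted p by limma (Sult1e1, Sult1a1, Sult1b1, Sult2a1 and Sult5a1), beside 30.9% of all genes. Sult1e1 entered both counts through a filter it passed only in mutants, so nothing is read from either. Sult2a1 and Sult2a2 are also close paralogues between which reads may have been split. The lowest weights, 0.228 and 0.329, went to control HFD replicate 4 and mutant HFD replicate 1, each the only library of its genotype in its number series.

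**Figure D3:**
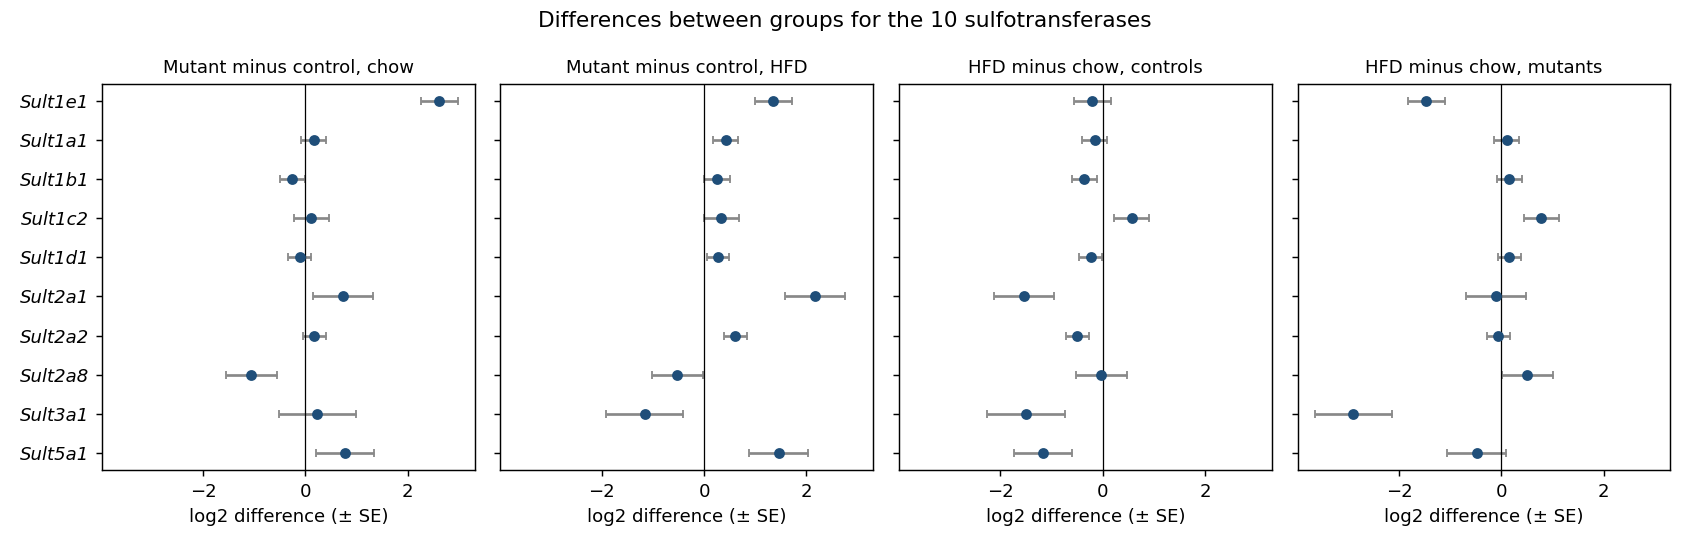
Log2 difference and standard error (horizontal bar) for the 10 genes in each comparison of 2 groups of 4 libraries, on the log2(adjusted TPM + 1) scale. Sult1e1 lies to the right in both genotype panels, Sult2a1 and Sult5a1 to the right mainly on HFD, and Sult3a1 to the left in both diet panels.

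Among the steroid sulfotransferases, Sult2a1, which sulfates dehydroepiandrosterone and bile acids, had higher means in mutants on both diets. Control chow libraries read 458, 591, 588 and 305, and mutant chow libraries read 906, 673, 681 and 900. The mutants all lay above the controls on chow, where the ratio of means was 1.63, but the ranges overlapped once each library was rescaled to the same total. On HFD the controls read 143, 308, 439 and 34.1 and the mutants 346, 890, 1049 and 864. The control HFD mean of 230.9 ± 178 was the lowest of the 4 groups, and the mutant HFD mean of 787 ± 305 was close to that on chow (790 ± 131). The HFD genotype difference was 2.17 ± 0.581 log2 (limma adjusted p = 0.524, exact permutation p = 0.0571). It was 1.43 without control HFD replicate 4, the library at 34.1 (limma adjusted p = 0.0667). In the lower number series on HFD the only mutant (346) lay inside the range of the 3 controls, and in the higher series all 3 mutants lay above the only control.

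In controls Sult2a1 was lower in mean on HFD than on chow (log2 difference -1.54 ± 0.581, limma adjusted p = 0.299). In mutants it was alike in mean on both diets (-0.11 ± 0.581, limma adjusted p = 0.99). The interaction was 1.43 ± 0.822 (limma adjusted p = 0.895), so the 2 diet effects were not shown to differ. Without control HFD replicate 4 the diet difference in controls was -0.80 (limma adjusted p = 0.212) and the interaction 0.70.

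Sult2a2, a close paralogue, followed Sult2a1 with a smaller range. Its means were 308 ± 70.3 in control chow, 344 ± 57.8 in mutant chow, 224 ± 75.9 in control HFD and 330 ± 43.7 in mutant HFD. The genotype difference on HFD was 0.61 ± 0.223 log2 (limma adjusted p = 0.546). The diet difference in controls was -0.49 ± 0.223 (limma adjusted p = 0.366). The longest transcript models of the 2 genes shared 98.5% of 525 aligned bases, so reads may have been split between them and the levels of each are uncertain.

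Sult2a3 and Sult2a7, no members of the set but in the same cluster, bracketed these patterns. Sult2a3 read 52.2, 73.9, 82.8 and 24.8 in control chow and 111, 94.3, 113 and 153 in mutant chow, without overlap. On HFD it read 22.7, 70.1, 150 and 2.49 in controls and 113, 140, 152 and 209 in mutants (log2 difference 2.29 ± 0.793, limma adjusted p = 0.54). The transcript models of Sult2a1 and Sult2a3 share 93.4% of 1018 aligned bases, and those of Sult2a1 and Sult2a5 94.6% of 1020. Part of the likeness of these genes may come from shared reads, which was not tested. Sult2a7 lay in the other direction. It read 38.1, 85.2, 73.1 and 47.2 in control chow and 0.860, 1.94, 47.7 and 10.6 in mutant chow. On HFD it read 44.8, 23.6, 9.67 and 11.4 in controls and 9.53, 0.441, 1.23 and 0.766 in mutants, every mutant below every control (-2.82 ± 0.856, limma adjusted p = 0.527, exact permutation p = 0.0286). Sult2a5 gave 37.7, 31.0, 48.2 and 32.4 as means of control chow, mutant chow, control HFD and mutant HFD, with overlap throughout. Sult2a4 and Sult2a6 were at or below 2.003 in every library. The pseudogene Sult2a-ps1 overlapped between all groups, and Sult2a-ps2, at or below 11.3, was higher in every mutant than in any control on chow.

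Sult2a8, which sulfates bile acids in mouse liver, was the member whose mean was lower in mutants on both diets. Control chow libraries read 226, 166, 245 and 252, and mutant chow libraries read 52.4, 42.9, 262 and 203. Mutants 1 and 2 were thus far below the controls while mutants 3 and 4 lay among or above them. On HFD the controls read 167, 176, 163 and 449 and the mutants 196, 166, 165 and 93.5 (log2 difference -0.52 ± 0.501, limma adjusted p = 0.727). The HFD difference was -0.17 without control HFD replicate 4, the library at 449, and -0.30 without mutant HFD replicate 4. The chow difference was -1.06 ± 0.501, and 0.07 with mutant chow replicates 1 and 2 left out, a choice made after the values were seen. Sult2a8 and Sult2a1 were opposed in control HFD replicate 4, the highest library for Sult2a8 and the lowest for Sult2a1. Sult2a3 (2.49), Sult2a2 (146) and Sult2a5 (7.42) were also at their lowest in that library. Over all 8 Sult2a genes with protein, the summed level in it (651) stayed within the range of the other controls on HFD (588 to 1154).

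**Figure D4:**
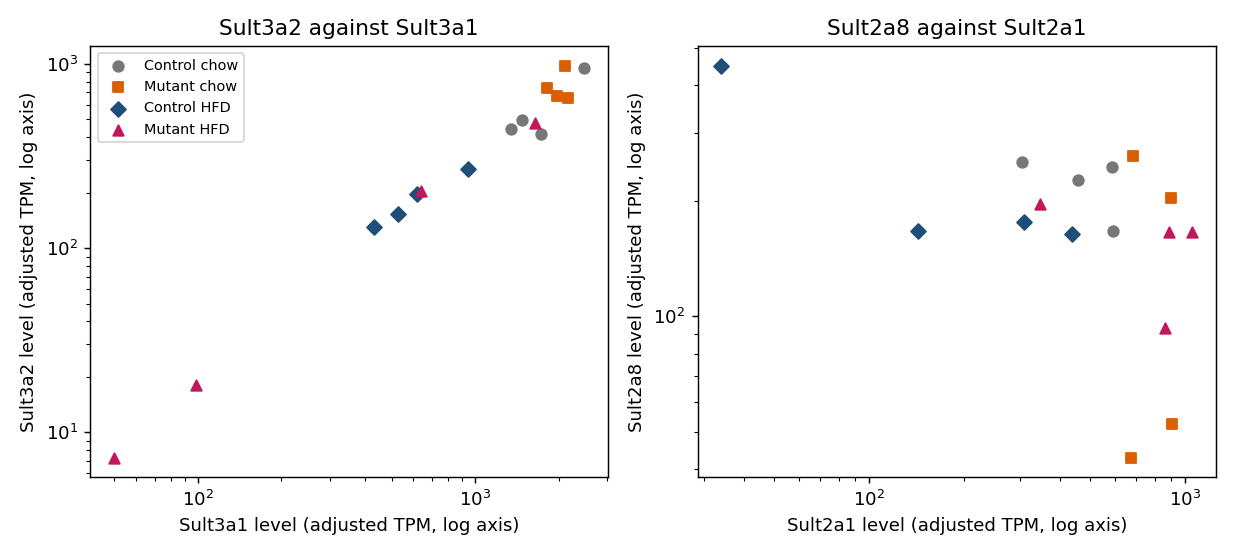
Left, Sult3a2 against Sult3a1, and right, Sult2a8 against Sult2a1, in each of the 16 libraries (adjusted TPM, both axes log), with 1 point per library coloured by group. The Sult3a points lie along a line down to the pair of mutant HFD libraries under 100, and the control HFD library at 34.1 for Sult2a1 is the highest for Sult2a8.

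Sult3a1, an amine sulfotransferase, was the member that separated the diets in both genotypes. Control chow libraries read 1482, 2478, 1346 and 1726 and control HFD libraries 434, 526, 620 and 940. Every HFD library was below every chow library (log2 difference -1.50 ± 0.756, limma adjusted p = 0.419, exact permutation p = 0.0286). Mutant chow libraries read 1814, 2104, 1973 and 2164 and mutant HFD libraries 637, 99.0, 49.9 and 1639. Again the groups did not overlap (-2.90 ± 0.756, limma adjusted p = 0.448, exact permutation p = 0.0286). The chow mean was 2.79 times the HFD mean in controls and 3.32 times in mutants. Of all genes, 2.98% were lower in every HFD control than in any chow control and 3.38% were higher. In mutants these shares were 1.86% and 1.67%.

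The mutant HFD group was split for Sult3a1. Replicates 2 and 3 were below 100, and replicates 1 and 4 lay within or above the control HFD range. The genotype difference on HFD was -1.16 ± 0.756 log2 (limma adjusted p = 0.634) although the means, 630 in controls and 606 in mutants, were alike. It was -0.36 without mutant HFD replicate 3, -0.69 without replicate 2 and -2.03 without replicate 4. On chow, mutants stood at 2014 ± 155 and controls at 1758 ± 505. The interaction was -1.40 ± 1.07 (limma adjusted p = 0.895), and -0.59 to -2.26 with single mutant HFD libraries left out.

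Sult3a2 followed Sult3a1 at a lower level. Its means were 576 ± 250.7 in control chow, 760 ± 150 in mutant chow, 188 ± 61.0 in control HFD and 177 ± 221 in mutant HFD. Mutant HFD replicates 2 and 3 again stood alone, at 18.0 and 7.30. HFD libraries were below chow libraries without overlap in controls (-1.58 ± 0.901, limma adjusted p = 0.472) and in mutants (-3.58 ± 0.901, limma adjusted p = 0.421). The ratio of Sult3a1 to Sult3a2 was 2.15 to 4.17 in all libraries but those 2, where it was 5.50 and 6.84. The transcript models share 90.8% of 893 aligned bases, so part of the likeness may come from shared reads, which was not tested.

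Sult5a1, an orphan member whose substrate is not established, had higher means in mutants, mainly on HFD. Control chow libraries read 54.0, 28.8, 27.4 and 163, and mutant chow libraries read 95.7, 72.5, 78.4 and 115. A single control, at 163, lay above all mutants. On HFD the controls read 20.9, 15.96, 16.1 and 46.2 and the mutants 20.1, 124, 110 and 58.0. All mutants but replicate 1 were above the highest control, and the log2 difference was 1.46 ± 0.575 (limma adjusted p = 0.558, exact permutation p = 0.0857). With number series as a term it was 0.59, since the low mutant belongs to the series of the 3 low controls. In controls the level was lower on HFD by the means (68.3 and 24.8, log2 difference -1.17 ± 0.575, limma adjusted p = 0.412). That difference was -0.62 without control chow replicate 4, the library at 163.

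Of the 10 genes, Sult1a1, Sult1b1 and Sult1d1 varied least. Sult1a1, which acts on small phenols, had group means of 474, 529, 429 and 590 in control chow, mutant chow, control HFD and mutant HFD, and its highest library was 2.42 times its lowest. On HFD the mutants read 320, 629, 737 and 673 against 304, 499, 520 and 393 in controls, higher in 3 of 4 (log2 difference 0.42 ± 0.247, limma adjusted p = 0.609). Sult1b1, which acts on thyroid hormones and phenols, had means of 39.8, 35.0, 31.4 and 37.9 in the same order. Sult1d1, which acts on catecholamines, had means of 102, 94.1, 85.7 and 104. In both genes every comparison overlapped, and the largest difference was -0.36 log2, for Sult1b1 between diets in controls (limma adjusted p = 0.557).

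Sult1c2 was higher in mean on HFD in both genotypes. It read 5.43 to 9.15 in control chow and 8.05 to 14.7 in control HFD (log2 difference 0.56 ± 0.341, limma adjusted p = 0.494). In mutants it read 3.93 to 13.8 on chow and 8.96 to 24.7 on HFD (0.79 ± 0.341, limma adjusted p = 0.716), a difference of 0.50 without mutant chow replicate 2. The ranges overlapped in each case. Mutant chow replicates 1 and 2 (5.37 and 3.93) were the lowest of that group for Sult1c2, as they were for Sult1b1 (23.7 and 23.2) and Sult2a8.

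Across the diet comparisons none of the 10 members passed the adjusted p by limma, as did 0% of all genes. The range over the members was 0.299 to 0.988 in controls and 0.421 to 0.99 in mutants. At an unadjusted p under 0.05 there were 2 in controls (Sult2a1 and Sult2a2), beside 12.9% of all genes. There were 3 in mutants (Sult1e1, Sult1c2 and Sult3a1), beside 6.86%. For the interaction none passed the adjusted p by limma (0.895 to 0.942), as for 0% of all genes. At an unadjusted p under 0.05 there was 1 member (Sult1e1), beside 4.21%. Sult1e1 passed the filter only through mutants. The diet comparison in mutants and the interaction share the mutant chow libraries with the comparison that chose the family. Nothing is read from either count. In controls 9 of 10 members had a lower mean log2 value on HFD, Sult2a8 at -0.03 among them, and in mutants 5 of 10. The median log2 difference of all genes was -0.01 in both. The share of all genes that were lower was not counted, so nothing is read from these counts.

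No gene that supplies the donor or reverses the reaction passed the test. Of 9 tested genes for PAPS synthesis, transport and breakdown, 0 passed the adjusted p by limma in any comparison, and the median log2 difference on HFD between genotypes was 0.15 (all genes 0.02). Papss2, which makes PAPS, had means of 155 in control chow, 146 in mutant chow, 100 in control HFD and 141 in mutant HFD. Its diet difference in controls was -0.64 log2 (limma adjusted p = 0.299). Of 9 tested sulfatases and sulfatase-activating genes, 0 passed by limma in any comparison. Sumf1, which activates sulfatases, was higher in every HFD control than in any chow control (means 15.8 and 22.5, limma adjusted p = 0.175).

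Genes that make or break down oestrogens and those that carry the conjugates gave no call either. Of 8 tested genes of oestrogen conversion 0 passed by limma. Hsd17b11, a short-chain dehydrogenase, was lower in every HFD mutant than in any HFD control (means 122 and 180, log2 difference -0.57, limma adjusted p = 0.527). Of 10 tested transporters 0 passed. Slco1a4, an organic anion uptake carrier, was lower in every HFD control than in any chow control (means 128 on chow and 78.4 on HFD, limma adjusted p = 0.216). Of 21 tested regulators of sulfotransferase genes 0 passed by limma. Cux2, a female-biased liver repressor, had means of 25.4 in control HFD and 52.0 in mutant HFD (log2 difference 1.17, limma adjusted p = 0.577), and Nr0b2, which encodes the repressor SHP, had 81.2 and 31.1 (-1.65, limma adjusted p = 0.54).

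Other female-biased liver genes were higher in median in mutants on both diets. The list was chosen with earlier results of these data known, so its counts and medians are a description. Of 20 such genes, which include cytochromes P450 of the Cyp2b and Cyp3a groups and hold no sulfotransferase, 10 were higher in every mutant than in any control on chow and 1 was lower, beside 1.95% and 1.09% of all genes. On HFD 0 were higher and 0 lower without overlap, beside 1.39% and 1.31%. Their median log2 difference was 0.62 on chow and 0.98 on HFD, beside 0.02 for all genes in each comparison. By limma 0 of 20 passed the adjusted p on HFD and 9 were higher at an unadjusted p under 0.05, beside 8.6% of all genes in either direction. A1bg, a secreted plasma protein, had means of 961 in control chow, 4238 in mutant chow, 126 in control HFD and 2392 in mutant HFD. Cyp2b13 lay the other way, at 390, 106, 493 and 211. The summed level of the list was 1770 in mutant HFD replicate 1, inside the control HFD range (1504 to 2866), and 8525 to 10093 in the other mutants on HFD. That replicate also had the lowest Sult1a1, Sult1b1, Sult1c2, Sult1d1, Sult2a1, Sult2a2 and Sult5a1 of its group, and the highest Sult2a8. Of 11 tested male-biased genes 0 passed by limma, with a median of 0.03 on chow and -0.22 on HFD, beside 0.02 for all genes in each.

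The genes most like Sult1e1 over the 16 libraries were not of its pathway. By Pearson r of log2 values they were Rrm2 (0.92), a ribonucleotide reductase subunit of dividing cells, and Ngp (0.91), Camp (0.91), S100a8 (0.90) and Chil3 (0.89), which are genes of neutrophils and their precursors. These values share the group differences and the libraries, and are a description. Within groups r was 0.67 to 0.82, and without mutant chow replicates 2 and 1, the libraries farthest from the median of Sult1e1, it was 0.73 to 0.82. Of the 5 genes, 1 was also among the 5 highest by Spearman's rho and 0 among the 5 highest within groups. Sult2a1 was closest to Sult2a3 (0.93), Sult2a2 (0.92) and Angpt1 (0.82), a vascular growth factor gene. Sult3a1 was closest to Sult3a2 (0.99), Phkg1 (0.96), a phosphorylase kinase subunit, and Gm10327 (0.93). Reads may be shared among these Sult2a genes and between Sult3a1 and Sult3a2, which was not tested.

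Neutrophil genes were followed further for this reason. A list of 13 such genes, chosen after the values were seen, had 12 with a row. Their summed level was 3313, 7277, 26.6 and 125 in mutant chow and 2.31 to 11.7 in control chow. On HFD it was 12.9, 70.3, 57.8 and 165 in mutants and 10.99 to 24.0 in controls. The granule protein genes Elane, Mpo and Prtn3 read 76.1, 80.6 and 113 in mutant chow replicate 1 and 131, 143 and 380 in replicate 2, and each was below 5 in every other library. Of genes of dividing cells, 8 chosen after the values were seen summed to 38.2, 60.8, 17.1 and 16.2 in mutant chow and 11.3 to 18.2 in control chow. On HFD that sum was 14.0 to 31.5 in mutants and 14.2 to 20.8 in controls. The neutrophil and cell division sums and Sult1e1 were highest in the same 2 libraries. The lists hold Ngp, Camp, S100a8, Chil3 and Rrm2, which were picked for their likeness to Sult1e1, so nothing is read from that. The neutrophil sum was above the highest control library (24.0) in every mutant but HFD replicate 1, where it was 12.9 and Sult1e1 was 2.34. In mutant chow replicate 3 the sum was 26.6 and Sult1e1 was 3.45. With mutant chow replicates 1 and 2 left out, a choice made after the values were seen, the chow difference of Sult1e1 was 1.89 log2. In whole liver, more cells of a type and more RNA per cell cannot be told apart, and the part of such cells in the result was not tested.

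**Figure D5:**
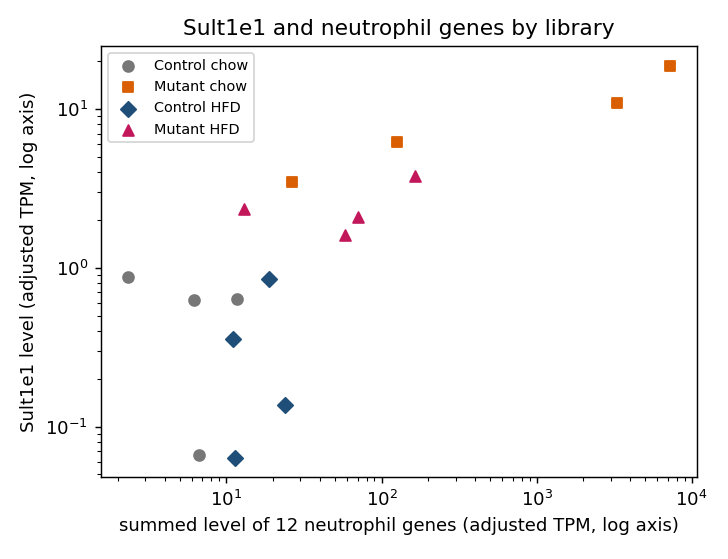
Sult1e1 level against the summed level of 12 neutrophil genes in each of the 16 libraries (adjusted TPM, both axes log), with 1 point per library coloured by group. Mutant chow replicates 1 and 2 are at the top right (sums of 3313 and 7277). Mutant HFD replicate 1 has a sum of 12.9 with Sult1e1 at 2.34, and every other mutant has a sum above that of any control.

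Acute-phase genes were also uneven between the mutant chow libraries. The summed level of 19 such genes was 25393, 134020, 12986 and 13535 in mutant chow and 11524 to 12750 in control chow. On HFD it was 12079 to 17010 in mutants and 11275 to 30523 in controls. The 8 macrophage markers summed to 541, 657, 224 and 319 in mutant chow and 127 to 445 in control chow. In mutant chow replicates 3 and 4 Sult1e1 was 3.45 and 6.18. Their macrophage sums lay inside the control chow range and their acute-phase sums (12986 and 13535) above it. Sult2a8, Sult1b1 and Sult1c2 were lowest in the 2 mutant chow libraries with the highest acute-phase sums. Markers of other cells overlapped between all groups in summed level, at 93.8 to 175 for 6 endothelial, 116 to 244 for 7 stellate, 29.0 to 45.8 for 6 bile duct, 1623 to 6922 for 6 red cell and 3.25 to 16.9 for 6 lymphocyte genes. Of 7 pancreatic genes 2 had a row. In all 18 lists 0 genes passed the adjusted p by limma in any comparison. The part of these cells and genes in the levels was not tested.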

How the data were processed

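Total RNA from liver was made into libraries with the NEBNext Ultra II kit and sequenced on the Illumina platform. The authors aligned reads to the mouse transcriptome (mm10) with kallisto in gene mode and used sleuth, for which no versions are given in the sources used here. The deposited table holds a signal per gene and library, read here as TPM divided by sleuth size factors, because column totals ran from 905897 to 1.12e+06. Read depth is unknown. Groups came from the genotype and treatment labels (4 libraries in each of 4 groups). All 16 libraries entered a single fit of group means to log2(value + 1) with limma 3.58.1 in R 4.3.3 (trended variance, Benjamini-Hochberg adjustment), over the 12704 genes that reached 1 in at least 4 libraries. The likelihood-ratio test of the study was not rerun. The fit was tested on simulated data. Exact two-sided permutation tests of single genes were run with scipy 1.17.1. Transcript models were aligned with Biopython 1.88. All 10 members, the other sulfotransferases, at most 3 genes per list by the size of their difference, and the genes with the highest correlation are named. Members and 18 gene lists were chosen with earlier results of these data known. Protein sequences were not used here. Alternatives were another pseudocount, other filters, rescaling, size factors, library weights, number series as a term, only the groups compared, and each library left out.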

Additional observations from a re-analysis of the deposited data

Results flagged for a closer look

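In 40 groups of 4 libraries (10 genes in 4 groups), the gap between an extreme library and its nearest neighbour was compared with the range of the group. Chance alone gives about 1 in 20 such groups. Sult2a8 in control HFD replicate 4 was 449, against 163 to 176 in the other controls on HFD. Sult5a1 in the same library was 46.2, against 15.96 to 20.9. The library also held the lowest Sult2a1 of all 16.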

How the results depend on the processing

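Read depth is not known, so the counting error of low levels such as Sult1e1 in controls cannot be given, and 4 libraries a group limit what the adjusted p can show. On chow the genotype difference of Sult1e1 was 3.92 with a pseudocount of 0.1 and 1.89 without mutant chow replicates 1 and 2 together (an alternative chosen after seeing the data), against 2.62. Sult1e1 was not tested with a filter at 5, which it did not reach in 4 libraries. With library weights 5 members passed on HFD (Sult1e1 at 1.28 among them), beside 30.9% of all genes, and nothing is read from that count. With the same weights the diet difference in mutants reversed for Sult2a1 (0.16) and Sult2a8 (-0.12). With number series as a term the genotype difference on HFD reversed for Sult1b1 (-0.07) and the interaction for Sult5a1 (-0.1). Without mutant chow replicates 1 and 2 the diet difference in mutants reversed for Sult1a1 (-0.09), Sult1b1 (-0.32), Sult1d1 (-0.05) and Sult2a8 (-0.62), and the interaction for Sult1c2 (-0.44) and Sult2a8 (-0.59). Rescaled to 1e+06 per library, 1 member in place of 2 was higher in every chow mutant, and the median difference of all genes was -0.16 for diet in controls and 0.13 for the interaction. On chow the genotype difference, a description, was 0.22 for Sult1b1, 0.1 for Sult1d1 and 0.07 for Sult2a8 without those 2 libraries, against -0.26, -0.11 and -1.06. Leaving out single libraries, signs changed for the chow genotype difference of Sult1c2 (-0.14 to 0.39) and Sult1d1 (-0.28 to 0.02), for the diet difference in controls of Sult2a8 (-0.38 to 0.11), for that in mutants of Sult1a1 (-0.02 to 0.38), Sult1b1 (-0.01 to 0.36), Sult2a1 (-0.28 to 0.25), Sult2a2 (-0.14 to 0.05) and Sult5a1 (-0.8 to 0.06), and for the interaction of Sult1c2 (-0.06 to 0.47). Members without overlap then numbered 1 to 5 higher in HFD mutants, 0 to 1 higher and 1 to 3 lower in HFD controls than chow controls, and 1 to 2 lower in HFD mutants than chow mutants. The 5 were counted without mutant HFD replicate 1, where 8.05% of all genes were higher in every HFD mutant. The 3 were counted without control HFD replicate 4, where 14.6% were lower in every HFD control than in any chow control. Nothing is read from these counts. The causes were not tested. No paired analysis was possible because the labels carry no replicate numbers.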
